A study of Mus musculus with 80 samples.

Results

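The genes described here are PPAR alpha and a set of its classical target and fasting genes: Ppara, Angptl4, Pdk4, Cpt1a, Acot1, Cyp4a10, Cyp4a14 and Fgf21. They were chosen by symbol with earlier results of these data known, and all probes whose gene symbol was one of these 8 names were taken. The lists of other genes used below were chosen in the same way. Counts of members or list genes beside the share of all probes are therefore descriptions and not tests of an independent set. Of the 8 genes, 7 had a probe, and these 7 genes were measured by 8 of the 25697 probes of the array, because Acot1 had 2 probes. Cyp4a10 had no probe under its symbol and has no value here. Female BALB/c nude mice, which lack a functional thymus, were injected intravenously with the α-emitter astatine and killed afterwards. The exposed groups were 1.7 kBq after 1 h (n = 3 mice), 105 kBq after 1 h (n = 2), 1.7 kBq after 6 h (n = 3), 7.5 kBq after 6 h (n = 2) and 1.7 kBq after 7 days (n = 3). Control mice received an injection without the radionuclide and were killed after 24 h (n = 3). Liver, lungs, spleen and the cortex and medulla of the kidney were measured in each group on Illumina expression arrays, 16 arrays a tissue and 80 in all. No exposed group had control mice of its own time point, so exposure and time after injection cannot be told apart, and the feeding state of the mice is not given in the sources used here. In whole tissue, fewer cells of a type and less RNA per cell cannot be told apart.

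PPAR alpha is a nuclear receptor that binds fatty acids and, together with RXR, switches on genes of fatty acid oxidation. Its activity is known best from the fasting liver, where fatty acids from adipose tissue arrive and are oxidized or turned into ketone bodies. Several of its targets, Angptl4 and Pdk4 among them, also respond to glucocorticoids and to other PPAR receptors outside the liver. The question put to these genes was whether their transcript levels in each tissue of exposed mice differed from control, and whether they differed between activities and times.

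Values are log2 of the array signal, and a probe was counted as above background at a log2 signal over 6.86. A probe was tested in a tissue where at least 2 of its 16 arrays were above background. A call needed a change of at least 1.5-fold and an adjusted p below 0.01 (Benjamini-Hochberg) in a limma fit of all probes of the tissue. All 8 member probes were tested in liver, kidney cortex and kidney medulla. In the lungs 5 were tested and in the spleen 6, since Ppara and Cyp4a14 were not above background on enough arrays of either tissue, nor was Fgf21 in the lungs.

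Of the 80 arrays, 7 carried transcripts of another tissue, by a rule that the median signal over that tissue's marker list exceeded the one on the typical array of the labelled tissue 4-fold or more. The array labelled kidney medulla 1.7 kBq 7 days replicate 1 had a median log2 signal of 14.19 over 8 hepatocyte genes such as Alb and Apoa1, and the summed signal of its 6 proximal tubule genes was 640, against 39786 to 47218 in control medulla. This array went against its label. Hepatocyte genes were also high in cortex 7.5 kBq 6 h replicate 1 (median 12.94). The brown fat genes Ucp1 and Cidea were high in cortex replicate 3 at 1.7 kBq after 1 h and after 6 h. The other 3 were cortex 1.7 kBq 6 h replicate 1 with adrenal genes, lungs 7.5 kBq 6 h replicate 1 with kidney genes and spleen 7 days replicate 1 with genes of the exocrine pancreas. Short of the limit, the median over 7 pancreas genes was 7.72 and 7.77 on the spleen 105 kBq 1 h arrays, against 6.73 to 6.81 in control spleen. Summed hepatocyte signal reached 2212 in spleen and 5060 in lungs at 105 kBq 1 h, against at most 1199 and 1421 in their controls. Their part in the spleen and lung results was not tested. No liver array passed this limit, but the summed signal of 7 fat cell genes was 2227 on liver 1.7 kBq 6 h replicate 1, with 5 of the genes above background, and 2082 on liver 105 kBq 1 h replicate 1, with 4 of them, against 762 to 781 in control liver. The part of this signal in the liver results was not tested. Over the 16 liver arrays the summed signal of the hepatocyte genes was 109231 to 136242 in exposed mice and 121384 to 131164 in control mice. The defining markers were present in the other tissues too, with summed signals of 68643 to 82737 on exposed and 68178 to 76100 on control arrays for lung epithelium and of 18641 to 25430 on exposed and 14780 to 21947 on control arrays for the spleen.

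In the liver, Angptl4 and Acot1 were upregulated and no member probe was downregulated. Of the 40 tests of a member probe in the liver, 6 were called, all of them higher in exposed mice: Angptl4 after 1.7 kBq 1 h, 105 kBq 1 h, 1.7 kBq 6 h and 7.5 kBq 6 h, and both Acot1 probes after 7.5 kBq 6 h. There were 10 calls without liver 1.7 kBq 6 h replicate 1, 7 without liver 105 kBq 1 h replicate 1 and 4 without either replicate of 7.5 kBq 6 h. By exposure, 1 of 8 member probes was called after 1.7 kBq 1 h, 1 after 105 kBq 1 h, 1 after 1.7 kBq 6 h, 3 after 7.5 kBq 6 h and 0 after 7 days. Of all 19005 probes tested in the liver, 1.16%, 0.952%, 0.574%, 1.12% and 0.0368% were called in these 5 comparisons. The median change of the 8 member probes was 0.55, 0.51, 0.45, 1.19 and 0.35 on the log2 scale, and the median over all probes rounded to at most 0.01 each time. At an adjusted p under 0.05 with no fold minimum, 10 of the 40 tests passed, where 2.94% of all liver tests did. All arrays of the exposed group lay above all control arrays for 4, 4, 3, 6 and 3 of the 8 member probes, and for 11.4%, 17.3%, 7.99%, 18% and 8.66% of all probes.

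**Figure D1:**
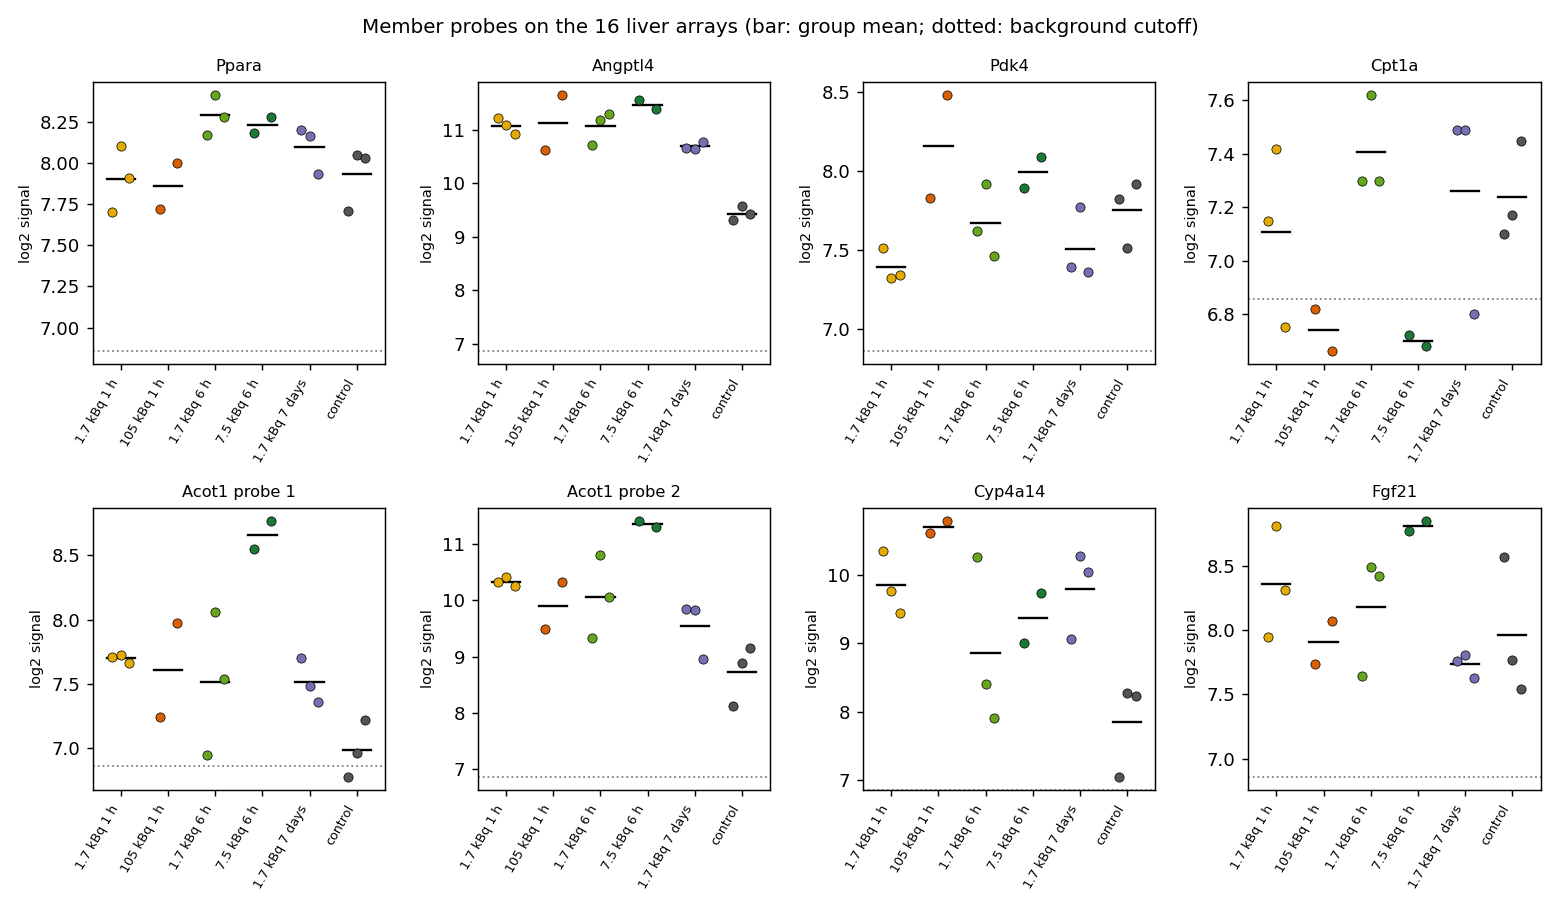
Log2 signal of the 8 member probes on each of the 16 liver arrays (vertical axes, each with its own range), for the 5 exposed groups and the control group (horizontal axes), with a bar at the group mean and a dotted line at the background cutoff of 6.86. All 13 exposed arrays lie above the 3 control arrays for Angptl4, and Cpt1a lies close to the cutoff.

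No test of the receptor itself was called in any tissue. Liver Ppara was at log2 7.70, 8.10 and 7.91 after 1.7 kBq 1 h, at 7.72 and 8.0 after 105 kBq 1 h, at 8.17, 8.41 and 8.28 after 1.7 kBq 6 h, at 8.18 and 8.28 after 7.5 kBq 6 h and at 8.20, 8.16 and 7.93 after 7 days, against 7.71, 8.05 and 8.03 in control liver. The 5 arrays of the 6 h groups all lay above control and the other groups overlapped with it. The largest liver difference was 0.36 after 1.7 kBq 6 h (SE 0.12, adjusted p = 0.189), and 7.99% and 18% of all liver probes lay wholly above control after 1.7 kBq and 7.5 kBq at 6 h. In kidney cortex the groups of 1.7 kBq after 1 h and 7 days lay wholly above control, as 8.73% and 6.92% of all cortex probes did. Differences from control in the cortex were 0.12 to 0.35, with adjusted p of 0.535 to 0.906.

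Angptl4 encodes a secreted inhibitor of lipoprotein lipase, and by this it directs circulating triglyceride away from fat tissue during fasting. Its liver signal was 11.22, 11.10 and 10.92 after 1.7 kBq 1 h, 10.62 and 11.65 after 105 kBq 1 h, 10.71, 11.19 and 11.30 after 1.7 kBq 6 h, 11.55 and 11.39 after 7.5 kBq 6 h and 10.67, 10.64 and 10.78 after 7 days, against 9.31, 9.57 and 9.42 in control liver. All 13 exposed arrays were above all control arrays, which was also so for 1.66% of all liver probes. The lowest exposed array lay 1.06 log2 units above the highest control array. The log2 fold change was 1.65 (SE 0.20, adjusted p = 0.000297) after 1.7 kBq 1 h, a 3.13-fold rise. It was 1.71 (SE 0.22, adjusted p = 0.000661) after 105 kBq 1 h. At 6 h it was 1.63 (SE 0.20, adjusted p = 0.000529) after 1.7 kBq and 2.04 (SE 0.22, adjusted p = 0.000192), or 4.10-fold, after 7.5 kBq. After 7 days it was 1.27 (SE 0.20), which is 2.41-fold, with an adjusted p of 0.0184 that missed the threshold. The call after 105 kBq was lost without its replicate 2 (1.19, adjusted p = 0.0102), and with only these 2 groups in the fit (adjusted p = 0.0277). The 7-day difference passed without liver 105 kBq 1 h replicate 1 (adjusted p = 0.000886), without its replicate 2 (adjusted p = 0.00085) and without 1.7 kBq 6 h replicate 1 (adjusted p = 0.00959).

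Outside the liver, Angptl4 was higher on every exposed array than on every control array in kidney cortex, kidney medulla and lungs, but no test there was called. This was 13 of 13 arrays in cortex and lungs, and 12 of 12 in the medulla without the array that went against its label, which lay above control too. Of all probes tested, 0.377% in cortex, 0.455% in lungs and 1.03% in medulla without that array had all exposed arrays above control. In kidney cortex the values were 11.06, 10.04 and 10 after 1.7 kBq 1 h, 10.08 and 11.56 after 105 kBq, 9.85, 10.59 and 11.46 after 1.7 kBq 6 h, 11.39 and 11.37 after 7.5 kBq and 9.99, 9.89 and 10.09 after 7 days, against 9.44, 9.42 and 8.06 in control cortex. Control replicate 3 was more than 1 log2 unit below the other control arrays. Angptl4 is also a gene of fat cells, and the summed signal of the fat cell markers was 1087 to 5585 on exposed and 1443 to 5729 on control cortex arrays, and 758 to 2227 on exposed and 762 to 781 on control liver arrays. Its part in Angptl4 was not tested. The differences ran between 1.02 after 7 days and 2.41 after 7.5 kBq 6 h (SE 0.48 and 0.53), with adjusted p of 0.92 and 0.085. In kidney medulla they ran between 1.41 after 1.7 kBq 1 h and 2.32 after 7.5 kBq 6 h (SE 0.44 and 0.50), with adjusted p of 0.267 and 0.386. With the medulla array that went against its label left out, the adjusted p was 0.0666, 0.0539, 0.101, 0.0545 and 0.605 in the order of the exposures, and the 7-day difference was 1.48.

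**Figure D2:**
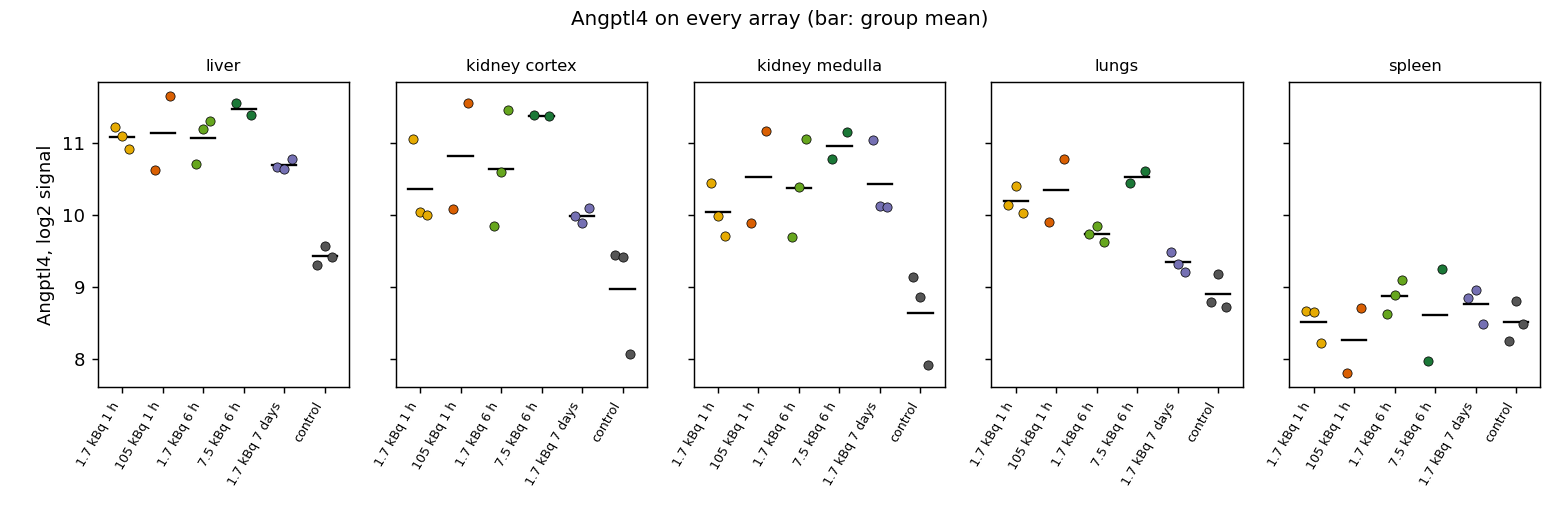
Log2 signal of Angptl4 (vertical axis, shared) on every array of the 5 tissues, for the 5 exposed groups and the control group (horizontal axis), with a bar at the group mean. In liver, kidney cortex, kidney medulla and lungs all 13 exposed arrays lie above the 3 control arrays, and in the spleen 5 of 13 do. The medulla array of 1.7 kBq 7 days at 11.04 went against its label.

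In the lungs, Angptl4 was at 10.14, 10.40 and 10.02 after 1.7 kBq 1 h, at 9.90 and 10.78 after 105 kBq, at 9.73, 9.84 and 9.63 after 1.7 kBq 6 h, at 10.45 and 10.61 after 7.5 kBq and at 9.49, 9.32 and 9.21 after 7 days, against 8.79, 9.18 and 8.72 in control lungs. The lowest 7-day array lay 0.03 above the highest control array. The log2 fold change was 1.29 after 1.7 kBq 1 h (SE 0.19, adjusted p = 0.0144), 1.45 after 105 kBq 1 h (SE 0.22, adjusted p = 0.0166) and 1.63 after 7.5 kBq 6 h (SE 0.22, adjusted p = 0.0114). It was 0.84 after 1.7 kBq 6 h (adjusted p = 0.344) and 0.45 after 7 days (adjusted p = 1). The first 3 of these missed the threshold. Without lungs 105 kBq 1 h replicate 1 the adjusted p was 0.00338, 0.00104 and 0.00382 for these 3, and without its replicate 2 it was 0.00336 after 1.7 kBq 1 h and 0.00379 after 7.5 kBq 6 h, while the 105 kBq difference was then 1.01 (adjusted p = 0.0641). The summed signal of 5 heart muscle genes was 1978 to 14054 on exposed and 1267 to 9890 on control lung arrays, and that of the fat cell genes was 793 to 2274 on exposed and 884 to 1595 on control lung arrays. Their part in lung Angptl4 and Pdk4 was not tested. Without the lung array that carried kidney transcripts only 1 array of 7.5 kBq 6 h was left, and the difference was 1.71. In the spleen the exposed arrays ran between 7.80 and 9.25 around a median of 8.66, against 8.25 to 8.80 in control spleen, and the differences were between -0.26 and 0.35.

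Pdk4 encodes the kinase that inactivates pyruvate dehydrogenase and so spares glucose. It was not called in any tissue, but on all 13 exposed arrays of the lungs and of the spleen it was above all control arrays. Of all probes tested, 0.455% in the lungs and 0.236% in the spleen had this pattern. In the spleen the values were 8.26, 8.06 and 8.40 after 1.7 kBq 1 h, 7.41 and 8.16 after 105 kBq, 7.59, 7.25 and 7.38 after 1.7 kBq 6 h, 7.73 and 7.88 after 7.5 kBq and 7.07, 7.07 and 7.39 after 7 days, against 6.92, 6.96 and 6.88 in control spleen. The 4 highest arrays were the 3 of 1.7 kBq 1 h and replicate 2 of 105 kBq 1 h, and control lay just above the background cutoff. The difference was 1.32 after 1.7 kBq 1 h (SE 0.17, 2.50-fold, adjusted p = 0.0123) and 0.26 after 7 days (SE 0.17, adjusted p = 0.854). The first passed the threshold without spleen 105 kBq 1 h replicate 1 (adjusted p = 0.00136) or replicate 2 (adjusted p = 0.00137). In the lungs the exposed arrays ran between 7.26 and 8.71, against 6.87 to 7.12 in control lungs, with the largest difference of 1.08 after 105 kBq 1 h (SE 0.31, adjusted p = 0.204).

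In the liver Pdk4 was at 7.51, 7.32 and 7.34 after 1.7 kBq 1 h, at 7.83 and 8.48 after 105 kBq, at 7.62, 7.92 and 7.46 after 1.7 kBq 6 h, at 7.89 and 8.09 after 7.5 kBq and at 7.39, 7.77 and 7.36 after 7 days, against 7.82, 7.51 and 7.92 in control liver. No exposed group was clear of control, and the differences were between -0.36 and 0.41 (adjusted p of 0.286 or more). In the F test of a difference between tissues the adjusted p of Pdk4 was 0.626 or more in all 5 exposures. In kidney cortex Pdk4 spread widely within groups, 7.67 to 9.45 in control mice alone, and the 2 arrays with high brown fat genes, of 1.7 kBq 6 h and 1.7 kBq 1 h, were at 10.82 and 9.94. Values of 10.35 and 10.28 were on arrays of 7.5 kBq 6 h and 105 kBq 1 h, with summed brown fat signals of 718 and 617. The summed signal of the 3 brown fat genes was 340 to 4996 on exposed cortex arrays and 437 to 2176 on control cortex arrays, and its part in Pdk4 was not tested. In kidney medulla Pdk4 was 8.57, 9.82 and 10.13 after 1.7 kBq 6 h and 9.72 and 10.25 after 7.5 kBq 6 h, against 8.56, 8.20 and 8.04 in control medulla. These 2 groups lay above control, as 7.94% and 12.7% of all medulla probes did, with differences of 1.24 (SE 0.57) and 1.72 (SE 0.63) and an adjusted p of 1. In the limma fit without the medulla array that went against its label, the SE was 0.43 and 0.49. The adjusted p was then 0.304 and 0.215, and neither was called.

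Cpt1a encodes the liver form of the enzyme that loads long-chain fatty acids onto carnitine, the step that admits them to mitochondria. Its probe was dim everywhere, with a highest log2 signal of 7.62 in the liver and of 7.77 on the medulla array that went against its label. In the liver it was at 6.82 and 6.66 after 105 kBq 1 h and at 6.72 and 6.68 after 7.5 kBq 6 h, against 7.10, 7.17 and 7.45 in control liver. All 4 of these exposed arrays were below the background cutoff. They were also below the control arrays, as 15% and 16.6% of all liver probes were. The mean of the control arrays was 1.3-fold above the cutoff. The measured differences were -0.50 (SE 0.21, adjusted p = 0.217) and -0.54 (SE 0.21, adjusted p = 0.182), neither of them called. The 3 groups at 1.7 kBq overlapped with control, with differences of -0.13, 0.17 and 0.02.

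Acot1 encodes a cytosolic thioesterase that releases free fatty acids from acyl-CoA and is a sensitive PPAR alpha target in rodent liver. Probe 2 was at 10.32, 10.42 and 10.25 after 1.7 kBq 1 h, at 9.49 and 10.32 after 105 kBq, at 9.33, 10.80 and 10.06 after 1.7 kBq 6 h, at 11.41 and 11.30 after 7.5 kBq and at 9.85, 9.82 and 8.95 after 7 days, against 8.12, 8.89 and 9.15 in control liver. All groups except 7 days lay wholly above control, and both arrays of 7.5 kBq were the highest. In the order of the exposures, 11.4%, 17.3%, 7.99% and 18% of all liver probes lay wholly above control in these groups. Its log2 fold change after 7.5 kBq 6 h was 2.63 (SE 0.38, 6.20-fold, adjusted p = 0.00144), a call that was lost with a trended, robust variance prior (adjusted p = 0.0107). Probe 1 was dimmer, with 8.55 and 8.77 after 7.5 kBq, against 6.77, 6.96 and 7.22 in control liver, a difference of 1.68 (SE 0.25, 3.20-fold, adjusted p = 0.00173). Both calls rest on 2 mice. Leaving out replicate 1 of 7.5 kBq gave adjusted p of 0.0207 for probe 1 and 0.0293 for probe 2, and leaving out replicate 2 gave 0.0396 and 0.0208. The next largest change of probe 2 was 1.61 after 1.7 kBq 1 h (SE 0.34, adjusted p = 0.0141), which passed without 1.7 kBq 6 h replicate 1 (adjusted p = 0.00491) or replicate 2 (adjusted p = 0.00567). Acot1 has close relatives in the genome, and since probe sequences were not used here, the share of its signal that belongs to them is uncertain.

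In kidney cortex Acot1 probe 2 was at 12.25 and 12.68 after 7.5 kBq 6 h, against 11.24, 11 and 11.17 in control cortex, a difference of 1.33 (SE 0.33, adjusted p = 0.127). One of these 2 arrays, replicate 1, carried hepatocyte genes. All groups but 1.7 kBq 1 h lay above control in the cortex, with differences of 0.61 to 1.33, as did 12.3%, 5.09%, 9.44% and 6.92% of all cortex probes after 105 kBq 1 h, 1.7 kBq 6 h, 7.5 kBq 6 h and 7 days. In kidney medulla the array that went against its label had the lowest value of the tissue, 10.27, and the other exposed arrays were between 11.48 and 12.56, against 11.53 to 12.07 in control medulla. In the lungs the differences of probe 2 were between 0.07 and 0.74 and in the spleen between -0.27 and 0.64, with adjusted p of 0.508 or more.

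Cyp4a14 encodes a microsomal hydroxylase that oxidizes fatty acids at their far end and is among the genes that PPAR alpha agonists raise most in mouse liver. Its liver signal was 10.35, 9.77 and 9.44 after 1.7 kBq 1 h, 10.61 and 10.79 after 105 kBq 1 h, 10.26, 8.40 and 7.91 after 1.7 kBq 6 h, 9.01 and 9.74 after 7.5 kBq 6 h and 9.06, 10.28 and 10.04 after 7 days, against 7.04, 8.27 and 8.23 in control liver. All groups except 1.7 kBq 6 h lay wholly above control. In the order of the exposures, 11.4%, 17.3%, 18% and 8.66% of all liver probes did so in these groups. Within the 1.7 kBq 6 h group, replicate 1 stood well above the other 2 arrays. The largest difference was 2.85 after 105 kBq 1 h (SE 0.56, 7.23-fold), with an adjusted p of 0.0111 that lay just outside the threshold. With only the probes above background on 8 of 16 arrays tested, the adjusted p was 0.0077. It was 0.00107 without liver 1.7 kBq 6 h replicate 1 and 0.00676 without its replicate 3. After 1.7 kBq 1 h the difference was 2.01 (SE 0.50, adjusted p = 0.0347), and its adjusted p without liver 1.7 kBq 6 h replicate 1 was 0.00436. After 7 days it was 1.95 (SE 0.50, adjusted p = 0.22), after 7.5 kBq 6 h 1.53 (adjusted p = 0.161) and after 1.7 kBq 6 h 1.01 (adjusted p = 0.461). The Cyp4a genes are close copies, so signal from its relatives cannot be told apart here.

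In kidney, Cyp4a14 was at 12.30 to 13.75 on exposed cortex arrays, against 12.39 to 12.67 in control cortex, with differences of 0.22 to 0.54 and adjusted p of 0.748 or more. In the lungs 15 of 16 arrays were below the cutoff. The array of 7.5 kBq 6 h replicate 1 was at 9.82, and it was the lung array on which Umod, Slc12a1 and Fxyd2 of the kidney were high. Over the 6 genes of the loop of Henle and collecting duct the summed signal was 641 to 11069 on exposed lung arrays and 642 to 653 on control lung arrays. In the medulla the lowest value, 9.5, was on the array that went against its label, and without it the differences were 0.07 to 0.62.

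Fgf21 encodes the hormone that fasting liver releases and that acts on fat tissue and brain through the co-receptor Klb. It was above background on all 16 liver arrays, and on 2, 2, 1 and 5 of the 16 arrays of cortex, medulla, lungs and spleen. Liver values were 7.95, 8.81 and 8.31 after 1.7 kBq 1 h, 7.74 and 8.07 after 105 kBq, 7.64, 8.49 and 8.42 after 1.7 kBq 6 h, 8.77 and 8.85 after 7.5 kBq and 7.76, 7.81 and 7.63 after 7 days, against 8.57, 7.77 and 7.54 in control liver. Only the 7.5 kBq arrays were both above control, as 18% of all liver probes were, with a difference of 0.85 (SE 0.29, 1.80-fold, adjusted p = 0.13). The array labelled kidney medulla 1.7 kBq 7 days replicate 1 had an Fgf21 signal of 8.30, against 6.65 to 6.80 in control medulla, and without it Fgf21 was not tested in the medulla.

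**Figure D3:**
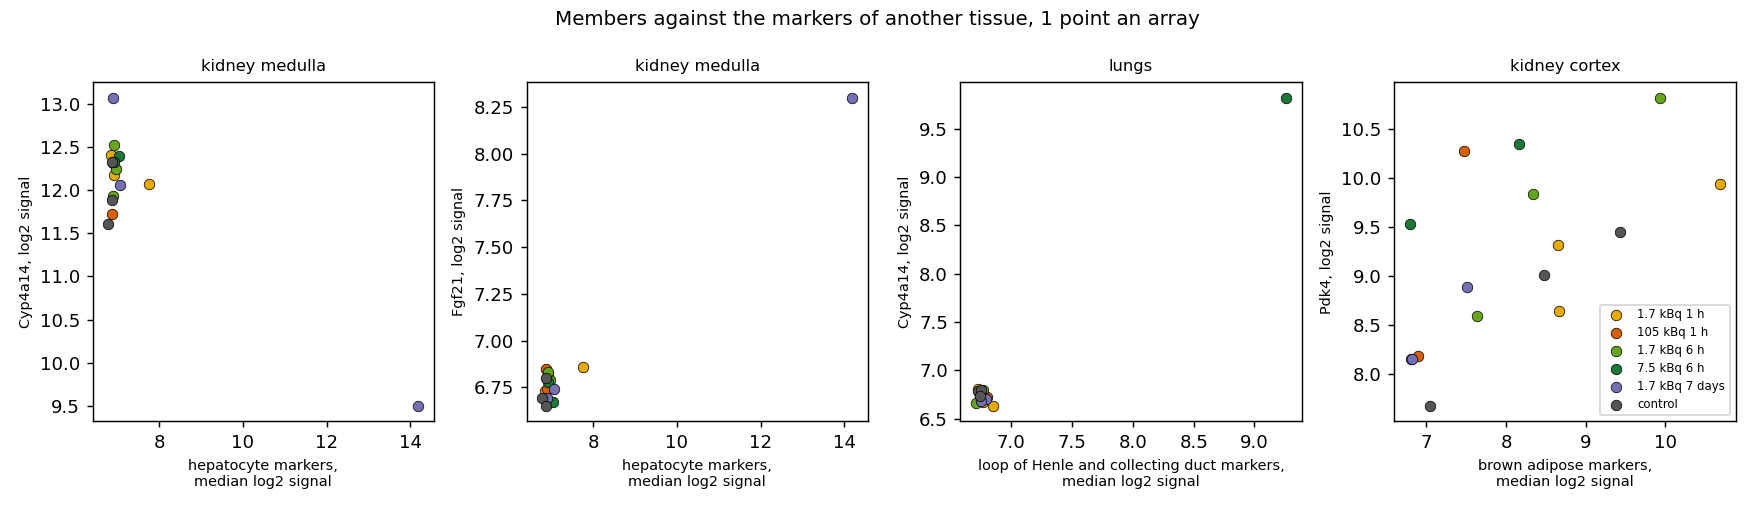
Log2 signal of Cyp4a14, Fgf21 and Pdk4 (vertical axes) against the median log2 signal of the markers of another tissue (horizontal axes), 1 point an array, coloured by group. The medulla array at 14.19 for hepatocyte genes is the lowest for Cyp4a14 (9.5) and the highest for Fgf21 (8.30), and the lung array with kidney genes is the only one with Cyp4a14 above the cutoff (9.82).

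Over the other tissues, 0 of the remaining 135 tests of a member probe were called. In kidney cortex the shares of all 17251 probes called were 0.22%, 0.191%, 0.029%, 0.0985% and 0% in the order 1.7 kBq 1 h, 105 kBq 1 h, 1.7 kBq 6 h, 7.5 kBq 6 h and 7 days. In kidney medulla they were 0.0171% after 1.7 kBq 1 h and 0% otherwise. In the lungs they were 0.0718%, 0.0538%, 0%, 0.0179% and 0%. In the spleen they were 0.00575% after 1.7 kBq 1 h and 0% otherwise. At an adjusted p under 0.05 with no fold minimum, 3 member tests passed in the lungs, all of Angptl4, and 1 in the spleen, of Pdk4, and 0 in cortex and medulla, where 0.208%, 0.0265%, 0.445% and 0.0536% of all tests did. At an unadjusted p under 0.05, 11 of 40 member tests passed in the cortex, 8 of 40 in the medulla, 12 of 25 in the lungs and 5 of 30 in the spleen, where 9.82%, 7.08%, 8.17% and 6.73% of all tests did. With the arrays that carried another tissue left out, again 0 member tests were called in medulla and spleen. Over all probes kept and the 5 exposures, 136 tests were then called in medulla and 9 in spleen. The probes kept in these fits numbered 17100 and 17263. In cortex 1.7 kBq 6 h, cortex 7.5 kBq 6 h and lungs 7.5 kBq 6 h, only 1 array a group was left. Calls in cortex and lungs without those arrays are therefore not given.

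**Figure D4:**
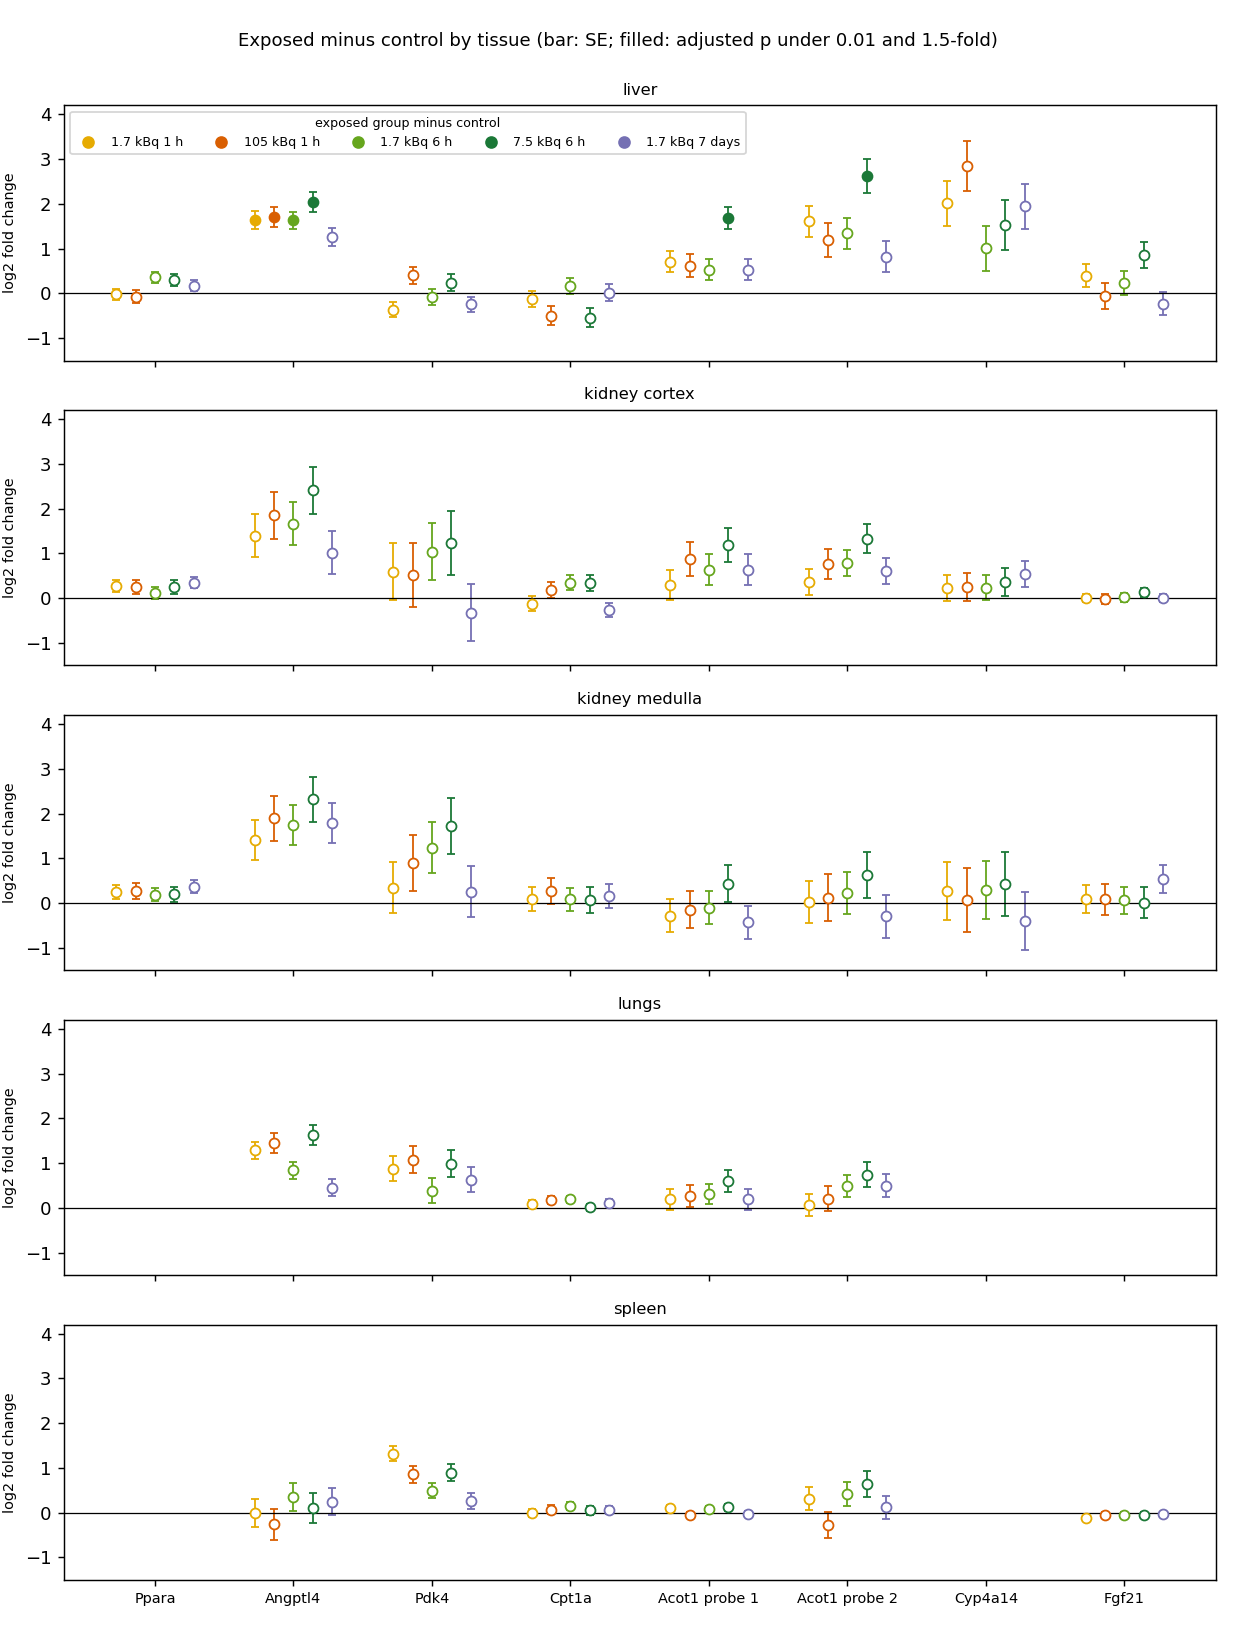
Log2 fold change of each exposed group against control (vertical axes) for the 8 member probes (horizontal axis) in the 5 tissues, with bars of 1 SE and filled points for calls. The 6 filled points are in the liver, 4 for Angptl4 and 1 for each Acot1 probe, and untested probes are left blank.

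No member passed the test of a difference between tissues. An F test asked for each probe whether its change from control differed between the 5 tissues, and 0 of 40 member tests were called, where 0.369% of all such tests were. At an unadjusted p under 0.05, 13 of 40 passed, where 9.69% of all such tests did. The smallest adjusted p was 0.103, for Cyp4a14 after 105 kBq 1 h, and for Angptl4 it was 0.104 after 7.5 kBq 6 h and 0.144 after 105 kBq 1 h. Without the medulla array that went against its label, Cyp4a14 after 105 kBq 1 h had an adjusted p of 0.00893. The test treated tissues as independent, although tissues of 1 mouse are not.

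Between activities and between times, 0 of 175 member tests were called, and 15 passed at an unadjusted p under 0.05, where 8.02% of all such tests did. The shares of all probes called were 0.00114% for 105 kBq against 1.7 kBq at 1 h, 0% for 7.5 kBq against 1.7 kBq at 6 h, 0.0102% for 6 h against 1 h at 1.7 kBq, 0.115% for 7 days against 1 h and 0.0376% for 7 days against 6 h. In liver, Angptl4 after 105 kBq differed from 1.7 kBq at 1 h by 0.06 (SE 0.22) and after 7.5 kBq from 1.7 kBq at 6 h by 0.40 (SE 0.22, adjusted p = 0.797). The difference of 7 days minus 1 h was -0.38 for liver Angptl4 (SE 0.20, adjusted p = 0.378) and -0.84 for lung Angptl4 (SE 0.19, adjusted p = 0.178). The smallest adjusted p was 0.0429, for spleen Pdk4, which was lower after 7 days than after 1 h by a log2 difference of -1.07 (SE 0.17). It reached 0.00852 without spleen 105 kBq 1 h replicate 1 and 0.00857 without its replicate 2.

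The 2 arrays of 105 kBq 1 h were far apart for several members, and in the same direction in each tissue. Replicate 2 minus replicate 1 was 1.02 in liver, 1.48 in cortex, 1.27 in medulla, 0.88 in lungs and 0.90 in spleen for Angptl4. For Pdk4 it was 0.65, 2.10, 1.85, 1.24 and 0.75 in the same tissues, and for Acot1 probe 2 it was 0.83, 1.05, 1.0, 1.17 and 0.41. For Cpt1a it was between -0.16 and 0.18. The labels do not say whether arrays of the same number come from the same mouse. Between pairs of tissues, deviations of same-numbered arrays from their group means correlated at r = 0.43 to 0.88 for Angptl4 (16 arrays a tissue). The range was 0.30 to 0.77 for Pdk4, -0.19 to 0.54 for Acot1 probe 2 and -0.69 to 0.48 for Cpt1a. The same pattern in several tissues is therefore not several independent observations.

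In control mice, of 80 differences between pairs of control tissues, 35 were called, where 23.6% of all such tests were. None of the 10 pairs was called for Angptl4 (lowest adjusted p = 0.0425) or for Cpt1a (lowest adjusted p = 0.0126). Ppara was highest in liver, 7.93 ± 0.19 (SD, n = 3), and the next tissue, kidney cortex at 7.28 ± 0.16, differed from it (adjusted p = 0.000139), while medulla, spleen and lungs followed with no call between neighbours. Cyp4a14 was highest in kidney cortex, 12.52 ± 0.14, and medulla, 11.94 ± 0.36, between which no difference was called (adjusted p = 0.354), and liver followed at 7.85 ± 0.70 (adjusted p = 1.91e-08 against medulla). Spleen and lungs were below background for Cyp4a14. Acot1 probe 2 fell in the order medulla 11.86 ± 0.29, cortex 11.13 ± 0.12, lungs 10.89 ± 0.27, liver 8.72 ± 0.54 and spleen 8.19 ± 0.41. Of these neighbours lungs and liver were called different (adjusted p = 7.76e-06). Acot1 probe 1 had the same order of tissues, but other neighbours were called different. These were medulla and cortex (adjusted p = 0.000996) and cortex and lungs (adjusted p = 0.000454). For probe 1 liver minus lungs was -0.48 (adjusted p = 0.00472), which was below the fold minimum and not called. Liver and spleen were not called either (adjusted p = 0.369). Fgf21 was above background on all control arrays of the liver alone (7.96 ± 0.54, adjusted p = 0.000175 against spleen).

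**Figure D5:**
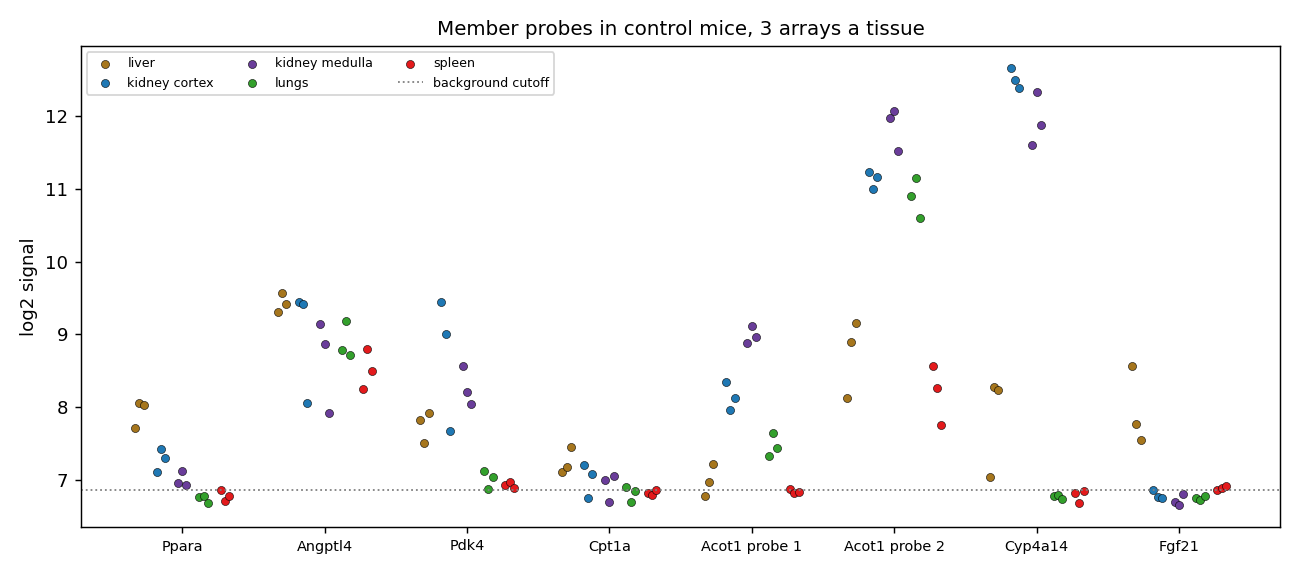
Log2 signal of the 8 member probes (horizontal axis) on the 3 control arrays of each tissue (vertical axis), with a dotted line at the background cutoff. Levels are to be compared within a probe. Cyp4a14 and Acot1 are highest in kidney, and Ppara and Fgf21 in liver.

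Pdk4 was highest in control cortex (8.71 ± 0.93), followed by medulla (8.27 ± 0.26), liver (7.75 ± 0.21), lungs (7.01 ± 0.13) and spleen (6.92 ± 0.041), and no neighbours in this order were called different. For Angptl4 the order was liver (9.43 ± 0.13), cortex (8.97 ± 0.79), lungs (8.90 ± 0.25), medulla (8.64 ± 0.64) and spleen (8.51 ± 0.27), with adjusted p of 0.359 or more between neighbours. Cpt1a was above background on all 3 control arrays in liver only (7.24 ± 0.18).

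Around the members, 122 other genes of fatty acid handling in 12 lists by role were examined, of which 100 were tested in the liver at the probe with the highest mean signal. Of these 100, 7 were upregulated and 1 was downregulated after 1.7 kBq 1 h, 4 and 1 after 105 kBq 1 h, 3 and 0 after 1.7 kBq 6 h, 12 and 1 after 7.5 kBq 6 h and 0 and 0 after 7 days. Of all genes tested in this way, 1.33%, 1.06%, 0.649%, 1.24% and 0.0547% were called. The median change over the 100 genes was 0.08, 0.07, 0.09, 0.15 and 0.10. At an unadjusted p under 0.05, 30, 30, 29, 34 and 22 of the 100 passed, where 18.2%, 18.1%, 12.7%, 18% and 9.02% of all genes did. In the other tissues limma called 0 genes of the lists, of which 82 to 98 were tested in a comparison. At an unadjusted p under 0.05 between 1 and 28 of them passed in a comparison, where 3.06% to 13.6% of all genes did. The share of the list genes was above that of all genes in 17 of the 20 comparisons.

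Lipid droplet and lipolysis genes made up the largest group, with 3, 2, 1, 5 and 0 of 12 tested upregulated and 0 downregulated. Plin5, which ties lipid droplets to mitochondria, was at 10.65, 10.17 and 10.16 after 1.7 kBq 1 h and at 10.25 and 10.23 after 7.5 kBq 6 h, against 8.79, 8.76 and 8.70 in control liver. The change was 1.58 (SE 0.19, adjusted p = 0.000275) after 1.7 kBq 1 h and 1.5 (SE 0.21, adjusted p = 0.00126) after 7.5 kBq 6 h. Its second, dimmer probe changed by 0.46 and 0.38 and was not called. Plin4, another droplet coat protein, was not above background in control liver and was at least 2.37-fold higher after 1.7 kBq 1 h, 3.41-fold after 105 kBq 1 h, 2.34-fold after 1.7 kBq 6 h and 2.48-fold after 7.5 kBq 6 h (adjusted p = 0.000944, 0.000224, 0.00144 and 0.0017). Fitm2, which serves droplet formation, and Pnpla2, the adipose triglyceride lipase, rose by 1.18 (SE 0.18) and 0.73 (SE 0.12) after 7.5 kBq 6 h.

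Among the regulators, 3, 2, 0, 3 and 0 of 12 tested were upregulated. Lpin1, a phosphatidate phosphatase and coactivator of PPAR alpha in mouse liver, was at 10.19, 9.74 and 9.28 after 1.7 kBq 1 h and at 9.24 and 10.42 after 105 kBq 1 h, against 7.36, 7.37 and 7.68 in control liver. It rose by 2.27 (SE 0.35, adjusted p = 0.00172) after 1.7 kBq 1 h, by 2.36 (SE 0.39, adjusted p = 0.00418) after 105 kBq 1 h and by 2.19 after 7.5 kBq 6 h, whereas a second Lpin1 probe changed by -0.01, 0.12 and -0.09. Foxo1, a forkhead factor that is active in fasting, rose by 1.06, 1.07 and 1.02 in these comparisons. Ppargc1a, a coactivator of PPAR alpha, rose by 0.91 after 1.7 kBq 1 h, and Esrra, a nuclear receptor of oxidative metabolism, by 0.74 after 7.5 kBq 6 h.

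In the carnitine shuttle, 2 of 8 tested genes were upregulated and 1 was downregulated after 7.5 kBq 6 h. They were the carnitine transporter Slc22a5 (1.38, SE 0.27) and Cpt2 (0.79, SE 0.13), and the peroxisomal carnitine octanoyltransferase Crot, which fell by 1.16 there and by 1.28 after 105 kBq 1 h. Other probes of Slc22a5 changed by 0.15 and 1.28. Among 9 tested peroxisomal genes, Pex11a, which acts in peroxisome division, rose by 0.95 and 1.01 in the groups of 1.7 kBq and 7.5 kBq after 6 h, and the transporter Abcd2 fell by 0.93 after 1.7 kBq 1 h. Of the 7 lipase partners and inhibitors tested, Apoa5, an activator of triglyceride clearance, rose by 0.87, 0.93 and 1.19 after 1.7 kBq 1 h, 1.7 kBq 6 h and 7.5 kBq 6 h. No gene was called among the 12 genes of mitochondrial beta oxidation, the 8 tested pyruvate dehydrogenase genes, the 8 other thioesterases, the 6 other fatty acid hydroxylases, the 3 genes of ketone body synthesis, the 11 genes of uptake and activation and the 4 Fgf21 receptor genes. At an unadjusted p under 0.05 between 0 and 4 genes of a list passed in a comparison, 4 of 12 in mitochondrial beta oxidation after 7 days.

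Over the 16 liver arrays, the genes most like Angptl4 in their log2 signal were Coq10b (Pearson r = 0.98), Mfsd2a (0.96) and 1810055G02Rik (0.95), out of 5596 probes that spanned at least 1.5-fold. For Acot1 probe 1 they were Asl (0.94), Mcrip2 (0.92) and Slc22a5 (0.92), and for probe 2 Ciapin1 (0.91), Fastkd1 (0.91) and Mttp (0.90). The closest to Cpt1a was Cyp3a41a (0.92), to Cyp4a14 Fbxo34 (0.83), to Pdk4 Dnm1l (0.81), to Ppara Abcd3 (0.80) and to Fgf21 Nsmf (0.80). These are descriptions over arrays that share the group structure.

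Promoter windows of RefSeq on GRCm38.p6 were at hand for 5 members, Ppara, Pdk4, Cpt1a, Acot1 and Fgf21, and the 250 bases before each start were searched on both strands. The letters AGGTCANAGGTCA of a perfect PPAR response element of direct repeats were in none of the 5 and in 0.0335% of all 32851 windows. The single copy AGGTCA, which many nuclear receptors bind and which is part of it, was found in Cpt1a (14% of all windows). The letters AGAACA, a part and not the whole of the glucocorticoid receptor element, were in Acot1 (16.1%). The E-box CACGTG (6.02%) and TATAAA (12.4%) were in Fgf21, while the D-box TTATGTAA (0.819%) was in none. The 3 windows with a match are shown for that reason, with the matches in capitals on the strand of the gene, so that an element can appear as its reverse complement. The Acot1 window is chr12:84009252-84009501 (+), the Cpt1a window chr19:3323051-3323300 (+) and the Fgf21 window chr7:45615491-45615740 (-).
Acot1: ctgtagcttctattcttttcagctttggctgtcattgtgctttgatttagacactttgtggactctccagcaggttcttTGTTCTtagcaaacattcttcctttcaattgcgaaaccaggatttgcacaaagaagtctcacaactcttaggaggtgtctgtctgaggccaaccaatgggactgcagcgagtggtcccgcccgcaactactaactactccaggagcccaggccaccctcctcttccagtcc
Cpt1a: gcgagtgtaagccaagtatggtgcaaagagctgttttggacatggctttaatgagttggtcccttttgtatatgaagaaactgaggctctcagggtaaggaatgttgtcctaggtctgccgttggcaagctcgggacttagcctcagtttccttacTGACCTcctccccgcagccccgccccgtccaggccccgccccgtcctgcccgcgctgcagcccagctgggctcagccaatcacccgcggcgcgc
Fgf21: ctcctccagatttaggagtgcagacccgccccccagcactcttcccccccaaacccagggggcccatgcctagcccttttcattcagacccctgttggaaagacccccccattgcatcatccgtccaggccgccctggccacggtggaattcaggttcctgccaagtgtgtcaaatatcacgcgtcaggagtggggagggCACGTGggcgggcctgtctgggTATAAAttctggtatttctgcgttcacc

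A match of letters is a description of the sequence and not of binding, and the short elements are frequent among all windows.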

How the data were processed

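The deposited values were array intensities that the authors had scanned and summarised with Illumina software and quantile-normalized in BASE, and they were taken as given on the linear scale. The authors' methods name technical triplicates, of which the table holds 1 column a mouse and tissue. A table of non-normalized values was not used, because its 160 columns could not be paired with samples. The normalized columns were close to a common distribution, and 55% of values were above the background cutoff of 115.8, set at the mode plus 2.33 SD of the values under it.

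Values were converted to log2 with no pseudocount and fitted with limma 3.58.1 in R 4.3.3, 1 fit a tissue with 6 group means, after tests on simulated data. P-values were adjusted over all probes kept in the tissue. Exposed groups were compared with control, with each other and between tissues, and control tissues in pairs. Probes were named from the platform annotation, with symbols brought up to date through the gene number. This gave 1 symbol for 23978 probes, and the other 1719 had none or more than 1. Arrays carry no counts, so the number of arrays sets the precision.

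The 8 members and the 12 role lists were chosen with earlier results of these data known. Besides members, up to 4 called genes of a role list with the largest change and the 3 genes most correlated with a liver member probe could be named. The alternatives were other filters, background subtraction, variance priors, a fit of only the 2 groups compared, a block for the replicate number, a looser threshold and leaving out each array.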

Additional observations from a re-analysis of the deposited data

Results flagged for a closer look

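Measured differences of opposite sign in separate tissues were found for 2 member probes, with every array of the exposed group on one side of control in 1 tissue and on the other side in another. Cpt1a after 105 kBq 1 h was lower than control on every array of the liver (log2 fold change -0.50) and higher on every array of the kidney medulla (0.28), the lungs (0.18) and the spleen (0.07). Of all probes 15% were lower on every array in the liver, and 15.4% in the medulla, 12.9% in the lungs and 11% in the spleen were higher. The F test of a difference between tissues gave an adjusted p of 0.558 in limma. After 7.5 kBq 6 h Cpt1a was lower in the liver (-0.54) and higher in the kidney cortex (0.34), as were 16.6% of all liver and 9.44% of all cortex probes, and the F test had an adjusted p of 0.547. Acot1 probe 1 after 105 kBq 1 h was higher in the liver (0.62) and the kidney cortex (0.87) and had a difference of -0.05 in the spleen, with an F test adjusted p of 0.737. Of all probes 17.3% in the liver and 12.3% in the cortex were higher on every array, and 11.1% in the spleen were lower. In the spleen this probe was above background on 0 of 2 exposed and 1 of 3 control arrays, so that difference has no direction. Each of these groups holds 2 mice, and the Cpt1a probe lay close to the background cutoff in every tissue.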

How the results depend on the processing

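In the liver 6 member tests were called, and 5 to 8 under every other setting except an adjusted p under 0.05 with no fold minimum, which gave 10. Leaving out each array gave 4 to 10. In the lungs, where 0 were called, the stricter filter gave 1, background subtraction 3, a variance prior with trend and robust fitting 3, the replicate block 2 and the looser threshold 3, and leaving out arrays gave 0 to 3. In the spleen, where 0 were called, background subtraction, the trend and robust prior and the looser threshold gave 1 each, and leaving out arrays 0 to 1. Between activities and times, the trend and robust prior and the looser threshold gave 1 each against 0, and leaving out arrays 0 to 1. The F test between tissues gave 0 to 1 when arrays were left out. In cortex and medulla all settings gave 0, and between control tissues 32 to 40 of 80 pairs were called, against 35. Single results were recomputed only for the 14 member tests with an adjusted p under 0.05, of which 6 were called. Of these 340 recomputed results, 294 kept their direction and side of the threshold, 7 lost the call, 39 gained it and 0 reversed. The looser threshold called all 14 by its rule, and many settings left out an array outside the 2 groups compared. Since the tests were picked by their p-value, these counts do not measure how stable the direction is. The Acot1 probe 2 call after 7.5 kBq 6 h was lost with the trend and robust prior (adjusted p = 0.0107). Cyp4a14 after 105 kBq 1 h was called with a cutoff from the density of log2 values, 117.4 (adjusted p = 0.00976), an alternative chosen after seeing the data. With the replicate number as a block the liver had 7 calls, among them Acot1 probe 2 after 1.7 kBq 1 h (adjusted p = 0.00878). The numbers were not taken to pair the mice, since same-numbered arrays of different groups had a mean correlation of deviations between -0.04 and 0.12 over the 5 tissues, with lowest values of -0.18 or less. Background correction with neqc, filtering by detection p-value and a block for the chip were not run, because they need the columns not used here. Groups of 2 or 3 mice and signals near background for Cpt1a, Ppara outside the liver and Fgf21 outside the liver limit what could be detected. The cause of the changes between settings was not tested.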
